A study of Mus musculus with 52 samples.

Results

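The amino acid transporters of 6 solute carrier families, Slc1, Slc3, Slc7, Slc36, Slc38 and Slc43, were examined in Cilia-APEX-IMCD3 cells, an immortalised mouse inner medullary collecting duct line. All gene symbols that begin with one of these family names, a letter a and a number were taken, which gave 44 of 24421 symbols. Of these, 42 are transporter genes, and Slc7a6os and Slc36a1os are opposite-strand genes that carry the family name but are not transporters. The expression filter left 23 of the 44 for testing, 22 of them transporters. RNA was sequenced in 52 libraries, 4 technical replicate libraries for each of 13 clones that had been through CRISPR base editing. Ciliated cells comprised the control clones D8, H12, A4 and G7 and the homozygous mutant clones Wdr34-1, Wdr34-3 and Wdr60. Non-ciliated cells comprised the control clones AB, Co1, Co2 and Co3 and the homozygous mutant clones Wdr34 and Wdr60. Wdr34 and Wdr60 encode intermediate chains of the dynein-2 motor of cilia, and the edits are missense changes, so the level of either mRNA does not check the genotype. Control clones had received the base editor with a guide vector that held no guide. Cilia were induced by serum starvation according to the methods. The sample labels name 10% serum throughout, and clones were placed by the state that their labels name. Which Wdr34 allele the ciliated clones carry is not given in the labels. State, serum and time of sequencing go together and cannot be told apart. Within a state each clone is 1 line, so the clone was treated as the replicate. The name Wdr60 occurs in both states, and the methods speak of 4 control and 3 mutant clones, fewer than the 13 counted here. Some lines were therefore probably sequenced in both states. The labels do not match clones across states, so no pairing could be used. The tests between states and of the interaction treat the 13 as independent, and their standard errors and p-values ignore any shared line.

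Amino acid transporters are membrane proteins that move amino acids into and out of cells and out of lysosomes. Slc38 carriers take up glutamine and other small neutral amino acids with sodium, and Slc1a4 and Slc1a5 exchange small neutral amino acids. Most Slc7 carriers work as a pair with a heavy chain, Slc3a2 or, in kidney and gut, Slc3a1, and exchange one amino acid for another. Amino acid shortage raises many of these genes through the transcription factor Atf4. Some lysosomal carriers take part in amino acid sensing for mTORC1, the kinase complex that drives growth. In the kidney, the proximal tubule reabsorbs most filtered amino acids, and the collecting duct is known for handling water and salt.

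Promoter sequences are shown for 3 transporters whose levels are described below and whose promoter window carries a motif of these pathways. Windows of 300 bases, 250 before and 50 after the start, were available for 33 of the 44 symbols (RefSeq, GRCm38.p6), and 17 of the 23 tested genes had one. The element TGATGCAA, recognised by dimers of C/EBP and ATF factors such as Atf4, was searched on both strands and occurred in 0.895% of all 32851 windows. Among tested members it was found at Slc1a4, Slc7a11 and Slc7a7, and Slc7a7, which was under 1 CPM in every clone, is not shown. The E-box TCACGTGA, the core of the lysosomal gene element CLEAR, was in 0.974% of windows and among tested members at Slc36a1. The core TGACNNNGC of the antioxidant response element was in 12.4% of windows and among tested members at Slc36a1, Slc38a2, Slc7a1 and Slc7a6. A match describes the letters only. In the stretches below, 5′ to 3′ on the gene's strand and from 120 bases before the start, the motif is in capitals. Slc1a4 encodes a neutral amino acid exchanger, and its stretch is chr11:20332710-20332833 on the minus strand, with the element across the start. Slc7a11 encodes the cystine and glutamate exchanger, and its stretch is chr3:50443614-50443733 on the minus strand, with 2 copies of the element in opposite orientation before the start. The start used for Slc7a11 lies inside the gene coordinates given below. Slc36a1 encodes a proton-coupled carrier of lysosomes and the plasma membrane, and its stretch is chr11:55204220-55204343 on the plus strand, with the E-box across the start.
Slc1a4: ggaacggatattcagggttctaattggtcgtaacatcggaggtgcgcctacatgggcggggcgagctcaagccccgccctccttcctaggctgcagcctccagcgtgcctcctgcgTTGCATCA
Slc7a11: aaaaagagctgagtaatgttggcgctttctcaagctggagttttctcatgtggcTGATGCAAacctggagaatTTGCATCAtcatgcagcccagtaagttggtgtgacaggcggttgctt
Slc36a1: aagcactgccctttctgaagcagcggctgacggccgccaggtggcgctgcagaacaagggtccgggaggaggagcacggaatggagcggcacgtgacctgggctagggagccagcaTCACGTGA

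Library totals ranged from 14816218 to 28084979 counts, so that 1 count-per-million (CPM) stood for 14.8 to 28.1 counts. The nearest library was one of the same clone for all 52 libraries. In 6 libraries of 5 clones (1 each of A4, G7, AB and non-ciliated Wdr60, and 2 of ciliated Wdr60) log2 CPM differed from that of the other libraries of the clone with an SD over genes of 0.361 to 0.530, against 0.104 to 0.280 in the others. Of the collecting duct and renal epithelium markers, Pax8 was at 149 to 427 CPM and Cdh16 at 154 to 857 CPM over the 13 clones, while Aqp2, the vasopressin-regulated water channel, was at 0 in 12 clones and at 0.0157 CPM in the other. Control clones Co2 and G7 stood apart in epithelial markers. Epcam was at 2.89 CPM in Co2 and 13.7 CPM in G7 but at 180 to 836 CPM in the other 11 clones, and Cdh1 was at 4.27 and 14.7 CPM against 241 to 649 CPM. Lrp2, the endocytic receptor megalin, was at 275 CPM in Co2 and 455 CPM in G7 and at 4.59 to 95.2 CPM elsewhere. It is 1 of 5 proximal tubule markers examined, and 2 of the 5 were at 0 in all libraries. Together the 5 summed to at most 459 CPM in ciliated and 288 CPM in non-ciliated control clones. Whether Co2 and G7 are the same line in 2 states is not given in the labels. Endothelial markers summed to at most 0.185 CPM and immune markers to at most 5.40 CPM in any clone, with Adgre1 and Cd3e at 0 throughout. Fibroblast markers summed to at most 31.1 CPM, the highest in Wdr34-3 through Dcn (29.1 CPM).

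Per length of transcript, glutamine and large neutral amino acid carriers were the most abundant members. In ciliated control clones the glutamine carrier Slc38a2 was at 135 ± 42.2 CPM per kb of exon (mean ± SD, n = 4 clones), the heavy chain Slc3a2 at 109 ± 32.7 and its partner Slc7a5, the exchanger of leucine and other large neutral amino acids, at 96.4 ± 34.8. These 3 levels lay within their spread. Slc7a1, the main carrier of arginine and lysine, followed at 44.3 ± 18.7 CPM per kb, and Slc38a10 at 34.1 ± 5.49. The neutral amino acid exchanger Slc1a5 was at 24.5 ± 2.93, the Slc3a2 partner Slc7a6 at 21.6 ± 4.39 and the glutamine carrier Slc38a1 at 16.4 ± 7.22 CPM per kb. In non-ciliated control clones the same 4 genes were at the top in another order, Slc7a5 at 138 ± 30.1, Slc3a2 at 125 ± 6.03, Slc38a2 at 97.7 ± 15.2 and Slc7a1 at 47.0 ± 11.4 CPM per kb, and here Slc3a2 and Slc38a2 lay further apart than their SDs. At the low end of the tested genes, in ciliated control clones, were Slc3a1 at 0.191 ± 0.0540, Slc7a7 at 0.0795 ± 0.0498 and the glutamate carrier Slc1a2 at 0.00358 ± 0.00336 CPM per kb. All counts assigned to the 44 symbols summed to 1894 to 3020 CPM of the library totals over the clones, and the ciliated control clones H12 and D8 were at those ends.

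The 21 members that were not tested had at most 10 counts in a library, and their highest clone mean was 0.292 CPM, for Slc7a15. Slc36a1os, Slc36a3, Slc38a11, Slc7a2 and Slc7a8 had no count in any of the 52 libraries, which allows up to 3 counts over all libraries, or 0.00322 CPM. The other 15 were Slc1a1, Slc1a3, Slc1a6, Slc1a7, Slc36a2, Slc38a4, Slc38a5, Slc38a8, Slc43a1, Slc43a3, Slc7a9, Slc7a10, Slc7a12, Slc7a13 and Slc7a14, at 1 to 22 counts in all libraries together. These include carriers of the proximal tubule. Slc7a9, which pairs with Slc3a1 to take up cystine and dibasic amino acids, had 6 counts in all, and Slc7a8, the partner of Slc3a2 for neutral amino acids on the basolateral side, had none.

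**Figure D1:**
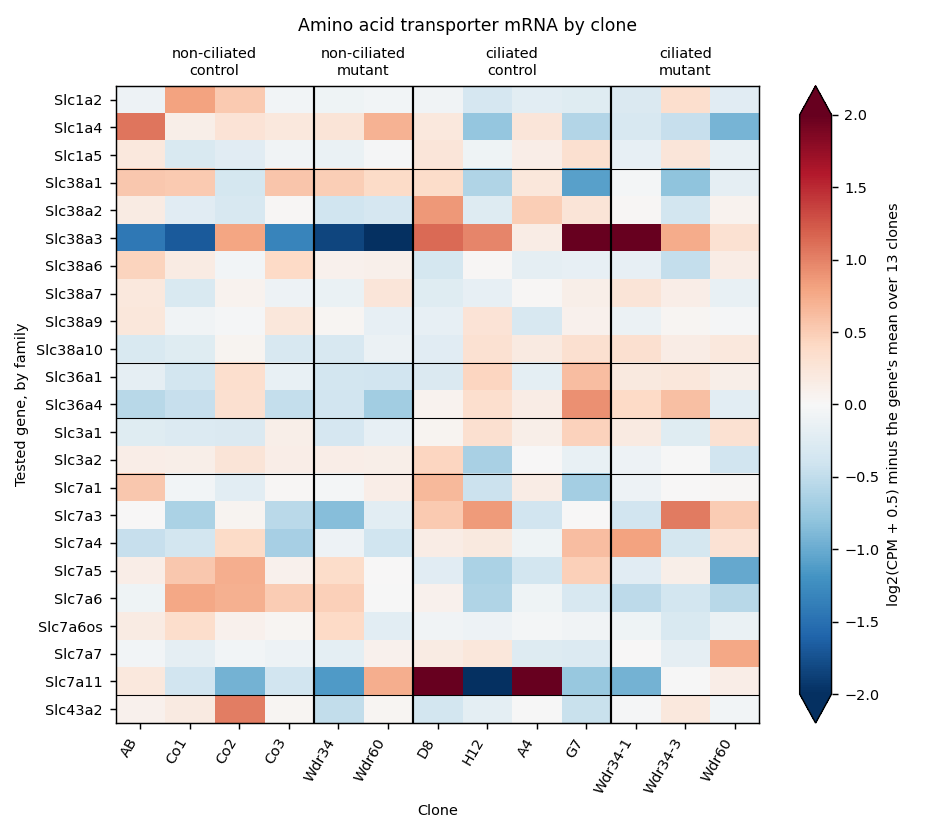
Heat map of the 23 tested members (rows, by family) in the 13 clones (columns, by group). Colour gives log2(CPM + 0.5) of the clone mean minus the gene's mean over the 13 clones, and values beyond 2 in size take the end colours; Slc38a3 and Slc7a11 vary the most, and Co2 differs from the other non-ciliated controls in several rows.

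The first comparison asked how the transporters differed between ciliated and non-ciliated control clones. Slc7a6, which exchanges cationic for neutral amino acids as a partner of Slc3a2, was the only member called by edgeR (chr8:106168219-106198714). It was at 87.6 ± 9.4, 160 ± 1.0, 153 ± 6.4 and 132 ± 2.6 CPM (mean ± SD of 4 libraries) in the non-ciliated clones AB, Co1, Co2 and Co3, and at 99.2 ± 3.5, 61.4 ± 3.1, 88.3 ± 8.6 and 74.4 ± 9.3 CPM in the ciliated clones D8, H12, A4 and G7. Clone AB overlapped the ciliated clones and the other 3 non-ciliated clones lay above them. In bulk RNA of a clone, more cells with a transcript and more transcript per cell cannot be told apart. Slc7a6 fell by 0.74 on the log2 scale in ciliated clones (SE 0.21, edgeR quasi-likelihood test on counts summed per clone, BH-adjusted p = 0.0317). The call was lost without Co1, Co2, Co3, H12 or G7 (adjusted p of 0.0568 to 0.101), and adjusted p ranged from 0.0139 to 0.101 over the clones left out in turn. The called member is 4.35% of the 23, and 18.4% of all 13994 genes tested were called, 1256 higher and 1324 lower in ciliated clones.

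At an unadjusted p under 0.05, 10 of the 23 members (43.5%) differed between the states of control clones, against 33.9% of all genes. Besides Slc7a6, the lower ones were Slc43a2, a carrier of large neutral amino acids without a partner (log2 fold change -0.69, SE 0.26), Slc38a6 (-0.44, SE 0.17), Slc1a4 (-0.65, SE 0.29) and Slc1a2 (-2.76, SE 1.08). Slc1a2 was at most at 0.600 CPM in any clone. With 1 clone left out in turn, differences ranged from -0.80 to -0.39 (Slc43a2), -0.83 to -0.38 (Slc1a4) and -3.42 to -2.13 (Slc1a2). The 5 higher ones were Slc38a10 (0.35, SE 0.13), the glutamine carrier Slc38a3 (2.16, SE 0.86), Slc7a11 (2.30, SE 0.94), Slc36a4 (0.65, SE 0.27), which takes up proline and tryptophan, and Slc3a1 (1.02, SE 0.46). None of these 9 passed the adjusted threshold by edgeR (adjusted p of 0.0809 to 0.144). DESeq2 on clone sums called Slc38a3, Slc43a2 and Slc1a2 besides Slc7a6 (16% of members, against 23.4% of all genes). With limma's voomLmFit, blocked on clone, Slc38a3, Slc43a2, Slc1a4, Slc38a10 and Slc7a5 were called besides Slc7a6 (30%, against 27%). Clone means of the groups did not overlap for 2 members, Slc43a2 and Slc7a6os, both lower in ciliated clones, which is 8.70% against 21.3% of all genes. The median log2 fold change of the members was -0.05, against 0.02 over all genes, and 11 were positive and 12 negative. By edgeR no member was both called and changed by at least 1 on the log2 scale. The members followed in detail here were chosen after their values were seen.

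**Figure D2:**
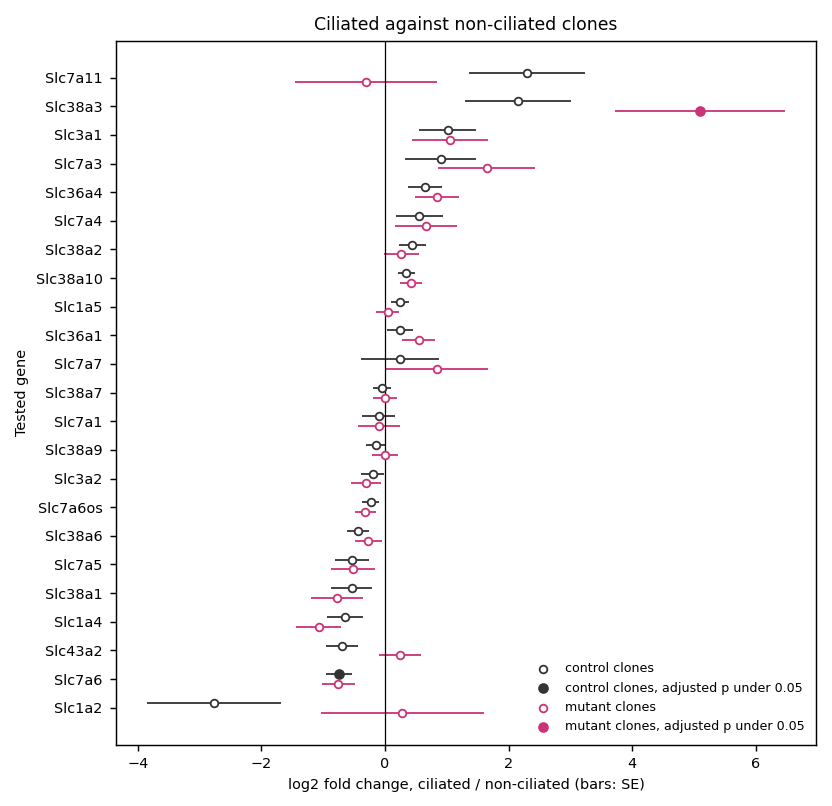
The log2 fold changes of the 23 tested members between ciliated and non-ciliated clones (x axis), in control clones (grey) and mutant clones (magenta), with bars for the SE. Filled points passed an adjusted p under 0.05: Slc7a6 in control clones and Slc38a3 in mutant clones.

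Slc38a3 (chr9:107651154-107668968), known from kidney and liver, was low in non-ciliated clones apart from Co2. It was at 0.566 ± 0.28 CPM in AB, 0.393 ± 0.16 in Co1 and 0.643 ± 0.15 in Co3, but at 4.46 ± 0.41 CPM in Co2. Ciliated control clones were at 5.77 ± 0.50 (D8), 5.14 ± 0.48 (H12), 2.66 ± 0.73 (A4) and 13.7 ± 0.63 CPM (G7). Co2 lay within the range of the ciliated clones, and the other 3 non-ciliated clones lay below all of them. Over the clones left out in turn, the log2 difference of 2.16 ranged from 1.58 without G7 (adjusted p = 0.222) to 3.65 without Co2 (adjusted p = 0.00755). Without both Co2 and G7 it was 3.07 (adjusted p = 0.0114). Among mutant clones, Slc38a3 was at 0.303 ± 0.16 and 0.0759 ± 0.080 CPM in non-ciliated Wdr34 and Wdr60, and at 12.5 ± 1.1, 4.32 ± 0.63 and 3.04 ± 0.79 CPM in ciliated Wdr34-1, Wdr34-3 and Wdr60. The mutant clones of the states did not overlap.

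The comparison of states within mutant clones used clones that the control comparison did not use. It came from the same fit with a shared estimate of the spread between clones, and state, serum and time of sequencing go together here too. Slc38a3 was the only member called, 5.10 higher on the log2 scale in ciliated clones (SE 1.37, edgeR, adjusted p = 0.0339), where 12.9% of all genes were called, 745 higher and 1054 lower. The call was lost without either non-ciliated mutant clone (adjusted p = 0.169 without Wdr34 and 0.173 without Wdr60) and without Wdr34-1 (0.0813), and adjusted p ranged from 0.00986 to 0.173 over the clones left out in turn. The difference ranged from 4.25 without Wdr34-1 to 6.41 without non-ciliated Wdr34, and the non-ciliated mutant clones Wdr34 and Wdr60 had 20 and 5 counts of Slc38a3 in all. At an unadjusted p under 0.05, 5 members differed (21.7%, against 31.3% of all genes). These were Slc38a3, Slc38a10 (0.42, SE 0.17) and Slc36a4 (0.84, SE 0.36) higher, and Slc1a4 (-1.08, SE 0.37) and Slc7a6 (-0.76, SE 0.27) lower, each with the sign of the control clones. DESeq2 on clone sums called Slc1a4 besides Slc38a3 (8.33% of members, against 20.1% of all genes). With voomLmFit, blocked on clone, Slc1a4, Slc7a6 and Slc38a10 were called besides Slc38a3 (20%, against 21.7%). Clone means did not overlap for 8 members (34.8%, against 52.3% of all genes). Slc38a3, Slc36a1, Slc36a4 and Slc38a10 were higher, and Slc1a4, Slc38a1, Slc3a2 and Slc7a6 lower, in every ciliated mutant clone than in both non-ciliated ones.

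Slc36a4 and Slc38a10 showed the same outlying clone as Slc38a3. Slc36a4 was at 7.22 ± 2.4 (AB), 7.70 ± 0.95 (Co1) and 7.66 ± 1.0 CPM (Co3), at 13.7 ± 0.53 CPM in Co2, and at 11.4 to 20.8 CPM in the 4 ciliated control clones. Slc38a10 was at 133 to 140 CPM in AB, Co1 and Co3, 173 ± 9.1 CPM in Co2 and 142 to 206 CPM in the ciliated controls. Without Co2 both passed the threshold, Slc36a4 at 0.90 (adjusted p = 0.0297) and Slc38a10 at 0.44 (adjusted p = 0.0414) on the log2 scale, as did Slc38a6 at -0.54 (adjusted p = 0.0478). Slc38a10 was also called without D8, at 0.45 (adjusted p = 0.0263). Leaving out other clones gave smaller differences, down to 0.43 for Slc36a4 (without G7), 0.28 for Slc38a10 (without G7) and -0.37 for Slc38a6 (without AB). Over the clones left out in turn, adjusted p reached 0.281, 0.213 and 0.212 for these 3 genes. The fit without Co2 called 4 members, against 22% of all genes. With Co2 and G7 both left out, 1 member was called, Slc38a3, against 20.8% of all genes.

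**Figure D3:**
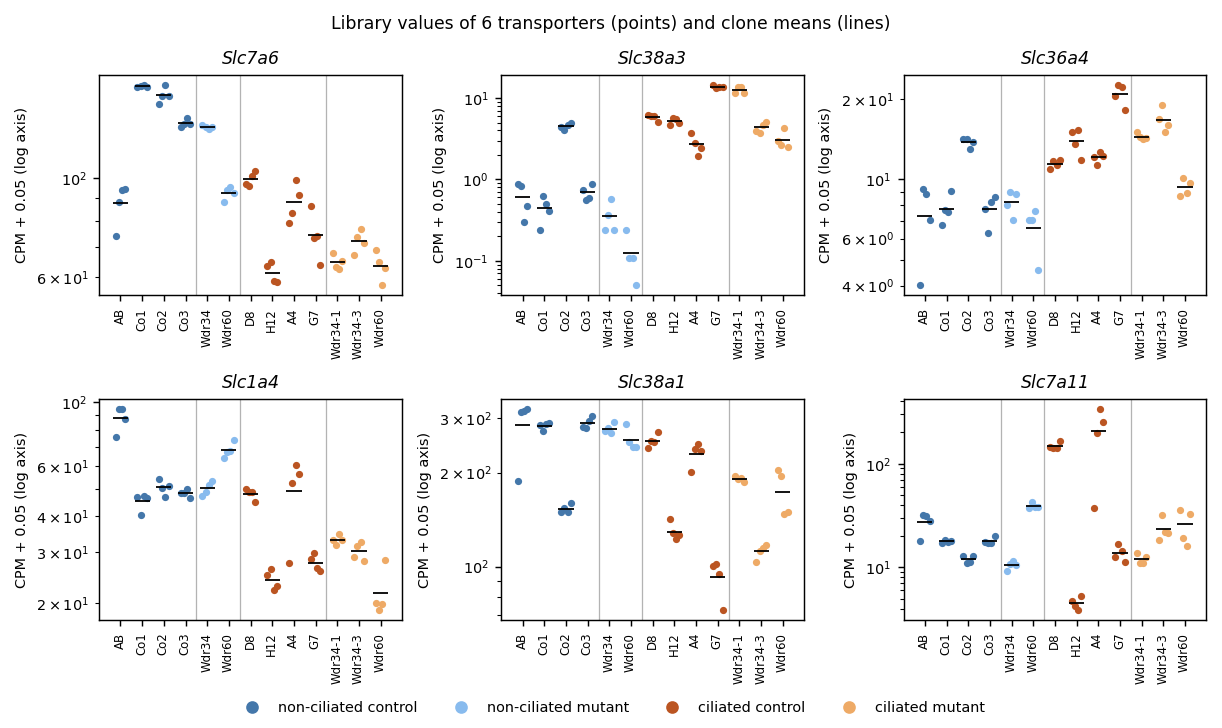
CPM + 0.05 of 6 transporters on log axes in each of the 52 libraries (points, coloured by group) with the clone means (lines), clones along the x axis. Slc38a3 and Slc36a4 in Co2 lie in the range of the ciliated controls, and Slc7a11 is highest in D8 and in 3 libraries of A4.

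Slc1a4 and Slc38a1, carriers of small neutral amino acids, were lower in part of the ciliated clones. Slc1a4 was at 87.9 ± 8.7 CPM in AB and 45.0 to 50.4 CPM in the other non-ciliated controls, at 48.0 ± 2.1 and 49.1 ± 15 CPM in ciliated D8 and A4, and at 24 ± 1.9 and 27.5 ± 1.8 CPM in H12 and G7. Mutant clones were at 50 and 67.9 CPM in non-ciliated and at 21.7 to 33.1 CPM in ciliated cells. Slc38a1 was at 283 to 289 CPM in AB, Co1 and Co3 and at 153 ± 5.3 CPM in Co2. In ciliated controls it was at 253 ± 13 (D8), 230 ± 20 (A4), 129 ± 8.5 (H12) and 92.4 ± 14 CPM (G7). Neither gene passed the adjusted threshold by edgeR in control clones (-0.65, adjusted p = 0.138, and -0.54, adjusted p = 0.274). Slc1a4 was called there by voomLmFit, blocked on clone. In mutant clones Slc1a4 was called by DESeq2, by voomLmFit and with only the clones compared in the fit.

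The lysosomal carrier Slc36a1 and Slc38a1 split the 13 clones into the same 6 and 7. The 6 clones with the highest Slc36a1, G7, H12, Co2, Wdr34-3, Wdr34-1 and ciliated Wdr60 at 30.6 to 43.2 CPM, had Slc38a1 at 92.4 to 191 CPM. The other 7 clones had Slc36a1 at 21.5 to 25.3 CPM and Slc38a1 at 230 to 289 CPM. These are descriptions over 13 clones that share state, and the pair was picked after the values were seen. Epcam was lowest in Co2 and G7, which are among the first 6, and was at 286 CPM in Wdr34-3 and 748 to 820 CPM in the remaining 3. The part of epithelial marker level in these differences was not tested.

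**Figure D4:**
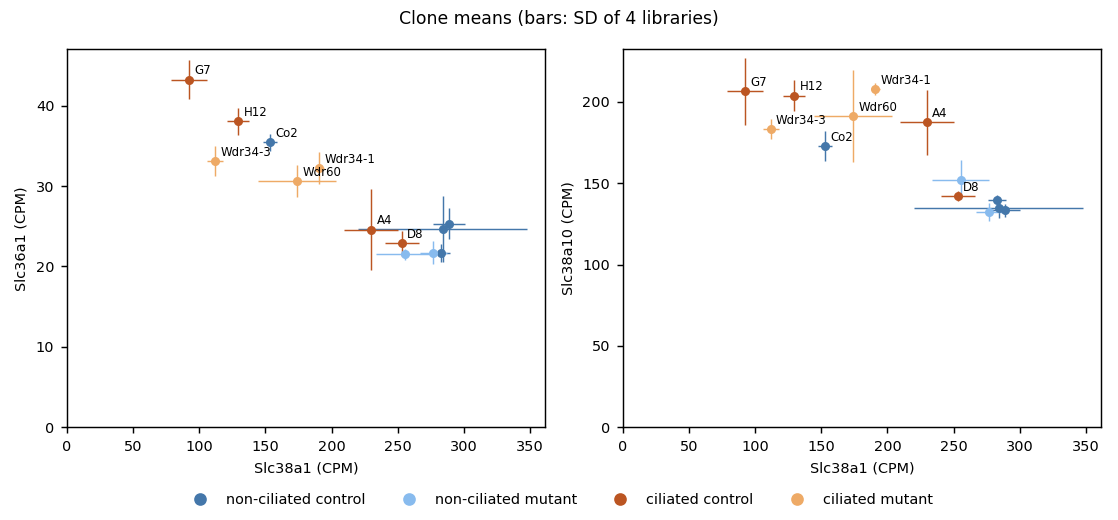
Slc36a1 and Slc38a10 (y axes, CPM) against Slc38a1 (x axis, CPM), 1 point per clone with bars for the SD of 4 libraries. Clones of ciliated cells and Co2 are labelled, the unlabelled blue points are AB, Co1, Co3 and the non-ciliated mutants; clones with Slc38a1 of 191 CPM or less have Slc36a1 of 30.6 CPM or more.

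Slc7a11 (chr3:50364936-50499087) varied most among clones of one group. In ciliated controls it was at 148 ± 12 CPM in D8 and 206 ± 130 CPM in A4, but at 13.8 ± 2.5 CPM in G7 and 4.46 ± 0.60 CPM in H12, a range of 46.1-fold. In A4 the library that stood apart was at 37.2 CPM and the other 3 at 198 to 334 CPM. Non-ciliated controls were at 12 to 27.3 CPM and non-ciliated mutants at 10.5 and 39.2 CPM. The log2 difference between control states of 2.30 (SE 0.94, adjusted p = 0.109) thus rested on D8 and A4, while H12 was lower than every non-ciliated clone. Without H12 it was called (adjusted p = 0.0403). Over the clones left out in turn, the difference stayed between 1.54 and 2.68. Slc38a2 was also highest in D8 (872 ± 55 CPM) and A4 (677 ± 150 CPM), with G7 at 571 ± 130 and H12 at 402 ± 32 CPM. Slc7a1 was at 494 ± 7.6 (D8), 347 ± 75 (A4), 232 ± 4.3 (H12) and 197 ± 7.2 CPM (G7). Slc3a2 was at 456 ± 9.9, 341 ± 66, 217 ± 21 and 306 ± 44 CPM in D8, A4, H12 and G7. D8 and A4 were thus the highest ciliated controls for these 4 genes, as they were for Slc1a4, Slc38a1 and Slc7a6. This held for 8 of the 23 members (34.8%), against 23.4% of all genes.

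Among members with a group median of at least 1 CPM, the highest clone exceeded the lowest by a median of 1.86-fold in ciliated controls (20 members) and 1.60-fold in non-ciliated controls (18 members). The range was under 2-fold for 11 of 20 and 15 of 18 of these. Slc3a2 was the steadiest in non-ciliated controls (1.11-fold) but ranged from 217 to 456 CPM in ciliated ones. Slc7a5, its partner, was at 392 to 611 CPM in non-ciliated and 239 to 517 CPM in ciliated controls (-0.54, SE 0.28, adjusted p = 0.200).

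The next comparisons asked whether mutant clones differed from control clones of the same state. In ciliated cells (3 against 4 clones) edgeR called no member and 0% of all genes, and no member had an unadjusted p under 0.05, against 1.94% of all genes. By DESeq2 also no member was called. Clone means did not overlap for 0 members, against 2.14% of all genes. The 5 members with the smallest p were Slc7a11, Slc38a2, Slc1a2, Slc7a7 and Slc1a4. Slc7a11 was at 12 ± 1.4, 23.5 ± 6.0 and 25.9 ± 9.7 CPM in Wdr34-1, Wdr34-3 and Wdr60, below D8 and A4 and within the range of the controls (log2 fold change -2.19, SE 1.05). Slc38a2 was at 488 ± 19, 371 ± 14 and 505 ± 130 CPM in the mutant clones, with Wdr34-3 below all 4 controls (-0.46, SE 0.24). Slc1a4 was at 33.1 ± 1.1, 30.2 ± 2.2 and 21.7 ± 4.4 CPM, with Wdr60 below the controls (-0.38, SE 0.32). Slc7a7, the partner of Slc3a2 that carries lysine and arginine in kidney and gut, was at 0.725 ± 0.24 CPM in Wdr60, 0.134 and 0.221 CPM in the Wdr34 clones and 0.0922 to 0.338 CPM in controls (0.81, SE 0.67). Slc1a2 was at 0.295 ± 0.18 CPM in Wdr34-3, 0.0150 and 0.0398 CPM in the other mutant clones and up to 0.0978 CPM in controls (1.46, SE 1.13). Over the clones left out in turn, the differences ranged from -2.59 to -1.44 for Slc7a11 (the latter without A4), from -0.62 to -0.25 for Slc38a2 (the latter without D8) and from -0.54 to -0.22 for Slc1a4 (the latter without A4 or Wdr60). For Slc1a2 and Slc7a7 the difference rested on 1 clone and turned to -0.61 without Wdr34-3 and to -0.19 without Wdr60.

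In non-ciliated cells (2 against 4 clones) edgeR again called no member and 0% of all genes, and DESeq2 called no member. Slc38a3 alone had an unadjusted p under 0.05 (4.35%, against 3.69% of all genes), at a log2 fold change of -2.96 (SE 1.21, edgeR, adjusted p = 1). Over the clones left out in turn, the difference ranged from -4.28 (without Wdr34) to -1.47 (without Co2). Clone means did not overlap for Slc38a3 and Slc38a2, both lower in mutants, which is 8.70% of members against 13.1% of all genes. Slc38a2 was at 364 ± 17 (Wdr34) and 379 ± 43 CPM (Wdr60) against 386 to 539 CPM in controls (-0.29, SE 0.27). The others among the 5 smallest p were Slc43a2, at 5.53 ± 1.3 and 8.24 ± 1.2 CPM against 8.17 to 16.8 CPM (-0.61, SE 0.32), Slc1a2, at 0.0911 and 0.103 CPM against 0.0863 to 0.600 CPM (-1.59, SE 1.31), and Slc36a1, at 21.7 ± 1.4 and 21.5 ± 0.67 CPM against 21.7 to 35.5 CPM (-0.30, SE 0.26). Over the clones left out in turn, the differences ranged from -0.94 (without Wdr60) to -0.31 (without Co2) for Slc43a2, from -1.90 to -0.95 (without Co1) for Slc1a2, from -0.38 to -0.14 (without Co2) for Slc36a1 and from -0.37 to -0.20 for Slc38a2. Over all 23 members the median log2 fold change in mutants was -0.15, with 17 negative, and over all genes it was 0.00.

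Whether the mutant effect differed between the states was tested as an interaction, which called no member and 0% of all genes by edgeR and no member by DESeq2. Slc43a2 was the only member with an unadjusted p under 0.05 (0.94, SE 0.42, 4.35% of members against 0.972% of all genes). It was at 5.69 to 7.90 CPM in ciliated controls and 7.69 to 9.35 CPM in ciliated mutants. Slc38a3 had an interaction of 2.94 (SE 1.45, unadjusted p over 0.05), and the state effects of 2.16 in control and 5.10 in mutant clones are therefore not shown to differ.

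**Figure D5:**
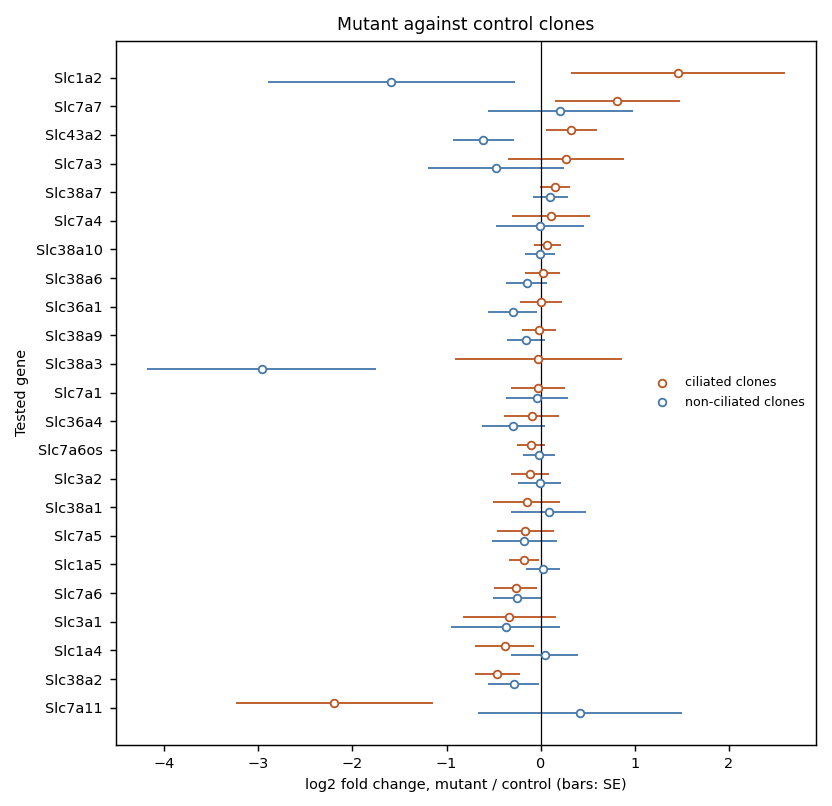
The log2 fold changes of the 23 tested members between mutant and control clones (x axis) in ciliated (orange) and non-ciliated cells (blue), with bars for the SE. No point passed an adjusted p under 0.05, and Slc7a11, Slc38a3 and Slc1a2 have the widest bars.

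Set singly beside the 4 control clones of their state, with no test, the mutant clones lay outside the control range for 5 to 10 of the 23 members. In ciliated cells Wdr34-1 was outside for 5 members (21.7%, against 23.2% of all genes), Wdr34-3 for 9 (39.1%, against 35.3%) and Wdr60 for 7 (30.4%, against 30.3%). Slc38a7, a lysosomal glutamine carrier, was above the controls in both Wdr34 clones, at 47.0 ± 1.0 and 43.3 ± 1.3 CPM against 33.1 to 42.8 CPM. Slc1a5 was below them in Wdr34-1 (53.9 ± 0.57 CPM) and Wdr60 (54.8 ± 5.6 CPM) against 57.0 to 75.7 CPM, but not in Wdr34-3 (71.8 ± 3.9 CPM). Slc7a5 in Wdr60, at 182 ± 12 CPM, was the lowest of all 13 clones. In non-ciliated cells Wdr34 was outside the range for 9 members (39.1%, against 34.6% of all genes) and Wdr60 for 10 (43.5%, against 36.3%). Slc7a11 was below the controls in Wdr34 and above them in Wdr60, and Slc38a2 and Slc38a3 were below them in both. Slc7a3, a cationic amino acid carrier, and Slc7a4 differed between the ciliated Wdr34 clones. Slc7a3 was at 0.506 ± 0.28 CPM in Wdr34-1 and 2.21 ± 0.62 CPM in Wdr34-3, and Slc7a4 was at 3.88 ± 0.68 and 1.48 ± 0.32 CPM.

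Slc38a9, a lysosomal carrier that takes part in the sensing of arginine for mTORC1, was at 8.50 to 13 CPM in all 13 clones (-0.14, SE 0.17, between control states). Slc38a7 was at 31.6 to 47.0 CPM (-0.05, SE 0.15). Slc36a1 was 0.25 higher in ciliated control clones (SE 0.21, adjusted p = 0.430). The genes of the mTORC1 amino acid sensing list, which holds the Ragulator, Rag GTPase, GATOR and folliculin complexes, were measured beside them. Of 29 tested, 5 were called higher and 1, Sec13 (-0.62), lower in ciliated controls, which is 20.7% of the list against 18.4% of all genes. The higher ones with the largest change were Flcn (1.19, SE 0.25) and Fnip1 (1.17, SE 0.23), which form the folliculin complex, Fnip2 (0.67, SE 0.15) and Lamtor1 (0.62, SE 0.17). In mutant clones 3 were higher, Fnip1 (1.22), Flcn (1.10) and Fnip2 (0.75), and 0 lower (10.3%, against 12.9% of all genes). The share called was near that of all genes in both. The number called higher was 3 to 6 in controls over the clones left out in turn, with 3 without AB, Co1 or G7 (13.6%, 8.44% and 16.5% of all genes called), and Sec13 was not called in 7 of these 13 fits. In mutants it was 0 without non-ciliated Wdr34, non-ciliated Wdr60 or Wdr34-3, where the share of all genes called was 0.213%, 4.09% and 9.01%. It was 1 without Wdr34-1 (5.5% of all genes) and 1 without the 6 libraries that stood apart (9.99%). DESeq2 on clone sums called 7 higher and 2 lower in controls, and 4 and 1 in mutants (23.4% and 20.1% of all genes). With voomLmFit, blocked on clone, 6 were higher and 1 lower in controls, and 5 and 1 in mutants (27% and 21.7%). The list's median log2 change was 0.08 in control and 0.14 in mutant clones, against 0.02 and 0.04 over all genes. Flcn was at 27.2 to 29.3 CPM in AB, Co1 and Co3, 55.9 CPM in Co2 and 65.1 to 114 CPM in ciliated controls, the highest in G7.

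Of 35 listed genes of the amino acid response to Atf4, all tested, 10 were called lower and 1 higher in ciliated controls (31.4%, against 18.4% of all genes), with a median log2 change of -0.38. In mutant clones 13 were called lower and 0 higher in ciliated cells (37.1%, against 12.9% of all genes), with a median of -0.85. The number lower in mutants was 0 without non-ciliated Wdr34, 6 without non-ciliated Wdr60 and 8 without ciliated Wdr60, where the share of all genes called also fell, to 0.213%, 4.09% and 7.42%. In controls it was 8 to 13 over the clones left out in turn. Among the called genes, the largest decreases in controls were those of Psat1, an enzyme of serine synthesis (-1.64, SE 0.35), Aldh18a1, of proline synthesis (-1.20, SE 0.27), and the aminoacyl-tRNA synthetases Iars (-1.08, SE 0.14) and Tars (-0.98, SE 0.19). Cth, at -1.57, did not pass there (adjusted p = 0.0575). In mutants they were those of Cth, of cysteine synthesis (-2.74, SE 0.67), Psat1 (-2.31, SE 0.44), Aldh18a1 (-1.62, SE 0.33) and Shmt2, of one-carbon metabolism (-1.43, SE 0.27). Not all list genes fell, and at an unadjusted p under 0.05 (edgeR) 19 were lower and 4 higher in ciliated mutants. Cbs, not called, was at 66.3 to 140 CPM in ciliated and 3.08 to 5.42 CPM in non-ciliated mutants. Vldlr, also not called, was at 209 to 604 against 100 to 143 CPM. Atf4 itself was at 319 to 378 CPM in ciliated and 536 to 611 CPM in non-ciliated mutants. The gene called higher in controls was the transcription factor Cebpb (1.26, SE 0.40, adjusted p = 0.0463). It was not called without the filter on low counts, nor with only the clones compared in the fit, and in 8 of the 13 fits with 1 clone left out no list gene was called higher. Cebpb was at 287 and 270 CPM in D8 and A4 and 99.4 and 80.2 CPM in H12 and G7. Psat1 was at 353 to 689 CPM in non-ciliated controls and at 313 (D8), 206 (A4), 109 (H12) and 108 CPM (G7) in ciliated ones. D8 and A4 were the highest ciliated controls for 20 of the 35 list genes (57.1%, against 23.4% of all genes), Psat1 and Cebpb among them. Without the 6 libraries that stood apart, 10 list genes were called lower and 1 higher in controls (16.1% of all genes called). With Co2 and G7 both left out, 12 were lower and 3 higher (20.8% of all genes called). DESeq2 on clone sums called 14 lower and 2 higher in controls, and 15 and 4 in mutants (23.4% and 20.1% of all genes). With voomLmFit, blocked on clone, 17 were lower and 4 higher in controls, and 18 and 3 in mutants (27% and 21.7%).

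Of 21 listed carriers of other families, most with amino acid or peptide substrates, 14 were tested, and 4 were called higher and 0 lower in ciliated control clones (28.6%, against 18.4% of all genes), with a median log2 change of 0.67. They were the lysosomal cystine carrier Ctns (1.83, SE 0.32), the neuronal-type neutral amino acid carrier Slc6a17 (1.76, SE 0.47), the peptide carrier Slc15a2 (1.37, SE 0.32) and the lysosomal sialic acid carrier Slc17a5 (1.18, SE 0.21). In mutant clones Ctns (2.26), Slc15a2 (1.83) and Slc17a5 (1.37) were called higher (21.4%, against 12.9% of all genes), with a median of 0.97. Without Co1, 2 were called in controls (8.44% of all genes), and without non-ciliated Wdr34, 0 in mutants (0.213% of all genes). DESeq2 on clone sums called 6 higher in controls and 4 in mutants (23.4% and 20.1% of all genes). With voomLmFit, blocked on clone, 8 and 6 were higher (27% and 21.7%), and 0 were lower by either tool. Ctns was at 7.65 to 17.9 CPM in non-ciliated and 32.8 to 79.3 CPM in ciliated controls, the highest in G7. For all 3 lists edgeR called 0 genes in either genotype comparison. At an unadjusted p under 0.05, 0 of 35 (Atf4), 1 of 29 (mTORC1) and 1 of 14 genes (other carriers) differed in ciliated cells, against 1.94% of all genes, and 3 (8.57%), 2 (6.9%) and 1 (7.14%) in non-ciliated cells, against 3.69%. DESeq2 called 0 of them. Of 6 proliferation markers tested, Top2a (-0.44) and Ccnb1 (-0.36) were called lower in ciliated controls (33.3%, against 18.4% of all genes) and Ccnb1 (-0.47) in ciliated mutants (16.7%, against 12.9%). The part of growth rate in the transporter differences was not tested.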

How the data were processed

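The deposited values were raw counts per gene symbol, without normalization, that the authors made with Rsubread 1.28.1 and featureCounts in R 3.4.4 from reads aligned to GRCm38/mm10. The strand setting and the handling of reads that fit several genes are not given in the sources used here, so overlapping genes are uncertain. The study's methods name DESeq2 1.18.1 for differential expression. Here the 4 technical replicate libraries of a clone were summed and 13 clones entered one fit with 4 groups (edgeR 4.0.16 in R 4.3.3: filterByExpr, TMM, glmQLFit, glmQLFTest, 2-sided). The fit ran over 13994 genes and called genes had a p under 0.05 after Benjamini-Hochberg (BH) adjustment over all of them. An SE is the size of the log2 fold change divided by the square root of F. CPM were TMM-scaled over the 52 libraries, and values are means ± SD of 4 libraries, which covers counting and technical error only. Lengths are exon unions of GENCODE vM21, and coordinates are RefSeq genes of GRCm38.p6. The fit was run on simulated data, whose outcome is not given here and is used for no conclusion. The members, lists, motifs and tests were chosen with earlier results of these data known. Clone values were to be given for members called with a log2 change of at least 1 between control states, members called in a genotype contrast or the interaction, and the 5 smallest p in each genotype contrast. Alternatives were RLE size factors, no filter on low counts, DESeq2 1.42.0, libraries as samples with and without a replicate block, voomLmFit (limma 3.58.1, edgeR) with the clone as a block, only the clones compared, a minimum log2 change of 1, and each clone left out. Added after the data were seen were all 13 clones in the state contrast, the 6 libraries that stood apart left out, and Co2 and G7 both left out.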

Additional observations from a re-analysis of the deposited data

Results flagged for a closer look

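In each of the 23 tested members, the highest and lowest of the 4 control clones of a state were compared with the nearest other clone by Dixon's gap test at its 95% limit, in 46 groups. The limit flags about 1 in 20 groups if values are normally distributed. The 46 groups are not independent, because all members share the same clones. Of them 8 passed, all in non-ciliated controls and 6 of them in Co2. By the same limit 8.41% of all genes passed in non-ciliated controls (4.49% in Co2) and 8.46% in ciliated controls (4.67% in G7), against 34.8% (26.1% in Co2) and 0% of members. In Co2, Slc36a4 was at 13.7 CPM (others 7.22 to 7.70), Slc38a3 at 4.46 CPM (0.393 to 0.643), Slc38a10 at 173 CPM (133 to 140), Slc43a2 at 16.8 CPM (8.17 to 9.10) and Slc3a2 at 406 CPM (368 to 372), each higher, and Slc38a1 at 153 CPM (283 to 289), lower. Co2 is also the clone with the lowest Epcam and Cdh1 of the 13. Slc1a4 was at 87.9 CPM in AB (others 45.0 to 50.4), a clone with 1 library that stood apart, and Slc3a1, which carries cystine with Slc7a9, was at 0.351 CPM in Co3 (0.144 to 0.169).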

How the results depend on the processing

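For the state effect in control clones, in mutant clones, the mutant effect in ciliated and in non-ciliated clones and the interaction, 1, 1, 0, 0 and 0 members were called with clones as samples (all genes: 2580, 1799, 0, 0 and 0). With libraries as samples and no replicate block these were 16, 12, 2, 2 and 3 members (all genes: 7760, 7572, 824, 1314 and 237), and with the replicate number as a replicate block 16, 12, 2, 2 and 2 (7625, 7458, 651, 1141 and 168). The deviations from the clone means of libraries that share a number had a mean correlation of -0.0061, against 0.0018 for other numbers. Single pairs of the same number ranged from -0.538 to 0.689, with 48 of 312 over 0.1. A mean near 0 cannot show whether some libraries of a number are related, which was not tested. DESeq2 on clone sums gave 4, 2, 0, 0 and 0 members (3493, 2936, 3, 14 and 0), while limma's voomLmFit, blocked on clone, gave 6, 4, 0, 0 and 0 (3391, 2726, 9, 7 and 0).

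With only the clones compared, 0 members were called in controls and 2 in mutants (1764 genes, 13.4%, and 1620 genes, 12.2%), and the interaction could not be fitted. A minimum log2 change of 1 left 0 and 1 members (871 and 916 genes). The state contrast over all 13 clones, added after the data were seen, called 5 members (5047 genes, 36.1%), namely Slc38a3, Slc7a6, Slc1a4, Slc38a10 and Slc36a4. With Co2 and G7 both left out, 1 member was called in controls and 2 in mutants (2891 and 2897 genes). Leaving out 1 clone in turn gave 0 to 4 members in controls (1178 to 3063 genes), 0 to 2 in mutants (31 to 2273 genes) and 0 in the other comparisons. Without non-ciliated Wdr34 or Wdr60, 1 clone is left in that group and is assumed to vary like the others. The state effect in mutant clones then called 31 or 594 genes. The cause of these differences was not tested. RLE size factors, no filter and leaving out the 6 libraries that stood apart kept the counts of members and of all genes called within 1.5 times. Slc1a2 and Slc7a7 in ciliated mutants reversed, to -0.61 without Wdr34-3 and to -0.19 without Wdr60, with ranges over the clones left out of -0.61 to 2.11 and -0.19 to 1.2. Of the other values of named members, 495 kept direction and side of the threshold, 57 passed it newly and 10 no longer did. Members under about 1 CPM, such as Slc1a2, Slc7a7 and Slc3a1, rest on few counts.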
